A study of Mus musculus with 4 samples.

Results

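Gene expression was compared between 2 populations of mouse cells, dendritic cells formed on a stromal layer (sDCs) and immature dendritic cells (imDCs), each hybridised to 1 one-colour Agilent array. The comparison held every gene whose probe the scanner software marked as well above background on at least 1 of these arrays, which was 15689 of the 19821 genes named on the array. A difference could be given for 15036 of them, and 13875 were measured on both arrays. For 558 genes only the sDC array, and for 603 only the imDC array, was above background, so that their difference is a bound, written "at least". The other 653 genes gave no value, since their bright side did not exceed the floor set for the dim one.

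All cells came from the marrow of BALB/C mice. The imDCs were grown from red cell-depleted marrow with GM-CSF at 10 ng/mL and IL-4 at 5 ng/mL, and on day 4 the loosely adherent clusters were taken with magnetic beads against CD11c, an integrin of dendritic cells (DCs) encoded by Itgax. The sDCs were grown from marrow progenitors stripped of lineage-marked cells and seeded on a monolayer of Sca-1+CD117-Lin- mesenchymal stem cells (MSCs), received lipopolysaccharide (LPS, a bacterial product that activates DCs) on day 4 and had formed by day 9. A further pair of arrays served for reference: mature DCs (maDCs), made from imDCs by a further 4 to 5 days in 10 ng/mL LPS, and sDCs made with 10 µg/mL of an antibody that neutralizes IL-10, given every 2 days. For sDCs, the dose of LPS, the cytokines added and the way the cells were parted from the stroma are not given in the sources used here. The number of mice behind each population is not given either. Each population was 1 array, so the spread between cultures is unknown, no test was possible, and every difference below is between single samples. The starting cells, the stroma, LPS and the days in culture differed between sDCs and imDCs. So did the slide, since the imDC array lay on a slide of its own. These factors cannot be told apart. The bead selection of imDCs and any difference in cytokines, neither of which is known for sDCs, cannot be told apart from them either.

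As background, DCs are leukocytes that present antigen to T cells on MHC class II molecules, whose genes are switched on by the coactivator CIITA. GM-CSF, acting through the transcription factor STAT5, and IL-4, acting through STAT6, are the cytokines commonly used to raise them from marrow. Macrophages depend on the receptor CSF1R instead, carry complement, scavenger and lysosomal genes, and present antigen less well. MSCs are fibroblast-like cells that build a matrix of collagens and proteoglycans and feed blood progenitors with factors such as CXCL12.

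Levels below are log2 signals with the 75th percentile of the array set to 0, and a difference is the level in sDCs minus that in imDCs. A gene is called higher or lower in sDCs where the difference, or its bound, reaches 2-fold, a log2 difference of 1. By this rule 3815 genes (25.4%) were higher in sDCs, 2421 (16.1%) were lower and 8800 lay within 2-fold. Differences were often large: among genes measured on both arrays 269 were past 16-fold higher and 210 past 16-fold lower, and 68 and 55 past 64-fold. The excess of higher genes moved with the scaling. Of the genes called, 61.2% were higher, against 53.05% after quantile normalization, 52.5% with the authors' deposited values and 42.9% when arrays were set to the median of their spots. The median difference over all genes was 0.21 here and 0.03, 0.03 and -0.18 in these other scalings, so a list's median is to be read against 0.21. A gene kept through 1 array alone could only be called towards that array, so counts over the genes measured on both arrays are added for lists that hold many such genes. List medians take a bound at its value. By signal level, the median was 0.64 in the dimmest of 5 equal bins of genes measured on both arrays and between 0.01 and 0.22 in the other bins. Probes with 10 spots had a median SD of 0.059 between spots in imDCs and 0.056 in sDCs, different probes of 1 gene had a median SD of 0.49 between them over 5866 genes, and among the 1974 called genes that had further measured probes, 89 had a probe 2-fold or more the opposite way.

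**Figure D1:**
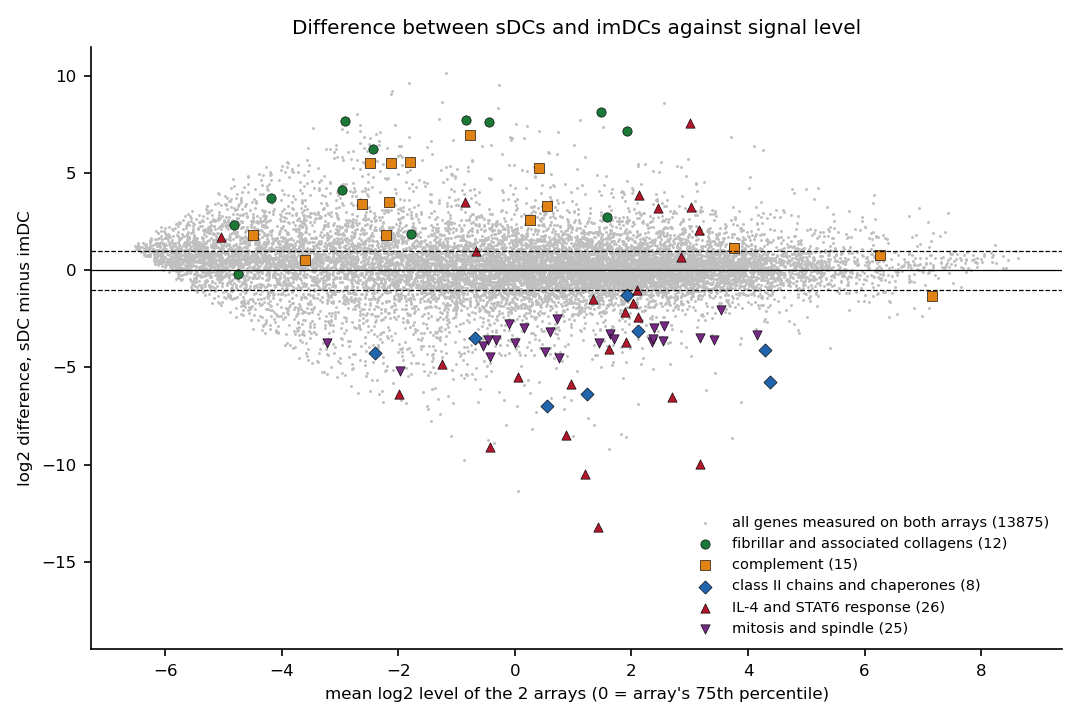
Each grey point is 1 of the 13875 genes measured on both arrays, with the mean log2 level of the sDC and imDC arrays on the horizontal axis and the log2 difference, sDC minus imDC, on the vertical axis; coloured symbols are members of 5 gene lists and dashed lines mark 2-fold. All 25 mitosis genes lie below the lower 2-fold line and the collagens measured on both arrays above the upper one, except Col14a1 at -0.21.

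Markers of both leukocytes and mesenchymal cells were on the sDC array. The genes that all leukocytes share lay at similar levels: 15 of 17 were within 2-fold, with a median difference of 0.29, or -0.10 when arrays were set to the median of their spots. Ptprc, which encodes CD45, stood at 4.87 in imDCs, 4.59 in maDCs, 4.99 in sDCs and 4.97 in antibody-treated sDCs. Laptm5, a lysosomal protein of blood cells, was higher by 1.79, and Arhgdib, which holds small GTPases inactive in blood cells, lower at -1.28. The summed signal of this list, in units of the 75th percentile, was 856 in imDCs, 968 in maDCs, 951 in sDCs and 925 in antibody-treated sDCs. Of the DC markers, Itgax was lower in sDCs, at 2.93 in imDCs, 3.70 in maDCs, -1.60 in sDCs and -1.47 in antibody-treated sDCs. The difference was -4.53, and -2.38 on another probe. The imDCs, from which the maDCs were made, had been picked by its product CD11c, and the part of that choice was not tested. Itgam, the CD11b integrin of myeloid cells, was 2.25-fold higher. All 6 mesenchymal markers checked (Col1a1, Col3a1, Pdgfra, Pdgfrb, Prrx1 and Thy1) were well above background in sDCs, against 4 in imDCs. All 6 DC markers and all 6 macrophage markers checked were well above background on all 4 arrays.

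**Figure D2:**
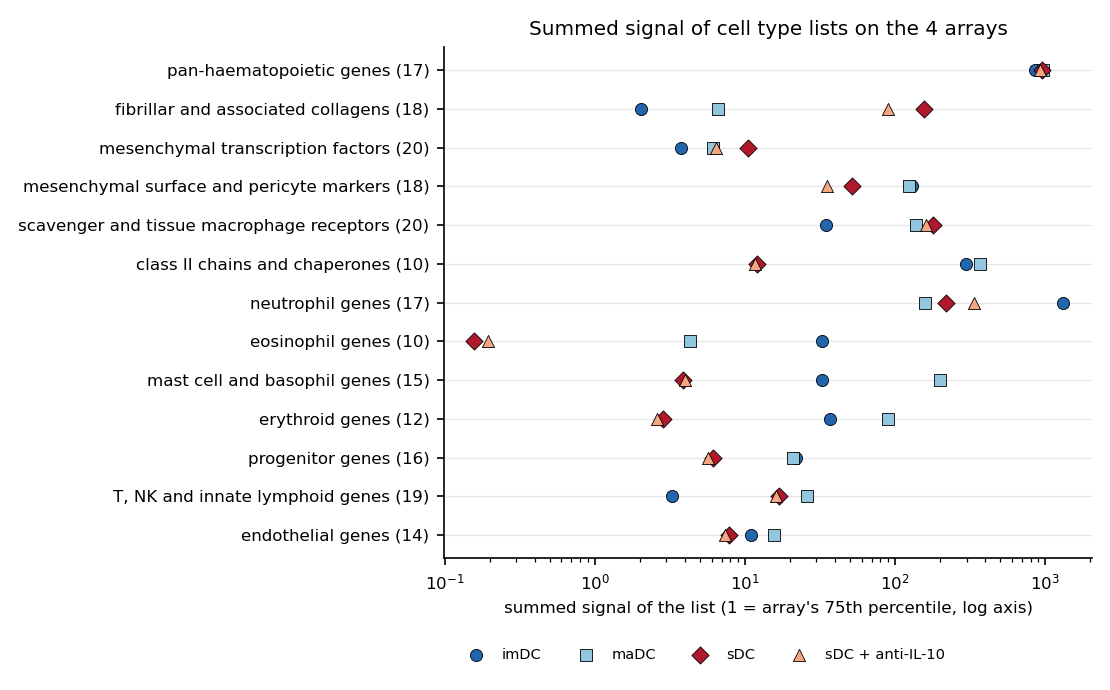
The summed signal of the members of 13 cell type lists is shown on a log axis (1 is the array's 75th percentile), with 1 symbol per array and the number of genes on the array in brackets. The leukocyte sum is nearly level over the arrays at 856 to 968, while the collagen sum is 2.04 in imDCs and 155 in sDCs, and the sums of the neutrophil, eosinophil and mast cell lists are lower in sDCs than in imDCs.

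Matrix genes were mostly higher in sDCs in every matrix list examined, and many were higher in maDCs too. Against the same imDC array, maDCs had 7 collagen genes higher and 0 lower, and 10 and 0 for collagen folding and crosslinking. Their counts were 8 and 0 for proteoglycans, 7 and 2 for elastic fibres and 7 and 1 for basement membrane. For matricellular genes they were 4 and 0, and for metalloproteinases and inhibitors 13 and 2. Of 16 collagen genes with a value, 15 were higher in sDCs and none lower, with a median difference of 6.72; over the 12 measured on both arrays 11 were higher, with a median of 5.19. The summed signal of the collagens was 2.04 in imDCs, 6.61 in maDCs, 155 in sDCs and 89.8 in antibody-treated sDCs. Col1a1 and Col1a2 encode the chains of type I collagen, the main fibre of bone and skin. Col1a1 (mm9 chr11:94813075-94813134) stood at -2.59 in imDCs, -2.69 in maDCs, 5.57 in sDCs and 4.77 in antibody-treated sDCs, and Col1a2 at -1.68 in imDCs, -1.82 in maDCs, 5.52 in sDCs and 4.68 in antibody-treated sDCs. Both were thus near the same level in imDCs and maDCs and high in both sDC populations. Col6a1 was at least 148-fold and Col12a1, a fibril-associated collagen, at least 328-fold higher. Col5a2 was 76.2-fold higher, and Col18a1, the source of endostatin, 199-fold. The MSC layer below the sDCs is itself a source of such transcripts. No array of MSCs alone was analysed here, and the part of stromal RNA in the matrix results was not tested. Fewer cells of a type and less RNA per cell cannot be told apart in such bulk samples, here and in all that follows.

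The enzymes that fold and crosslink collagen were mostly higher too, with 15 of 18 higher, none lower and a median of 2.86. Serpinh1, the collagen chaperone HSP47, was 147-fold higher and P4ha2, a prolyl hydroxylase subunit, 114-fold (mm9 chr11:53945032-53945091). P4ha2 stood at -3.46 in imDCs, 1.74 in maDCs, 3.38 in sDCs and 2.999 in antibody-treated sDCs, so it was also high in maDCs, whereas Serpinh1 stood at -3.18 in imDCs and -3.29 in maDCs against 4.02 in sDCs. Pcolce, which aids removal of the procollagen tail, was 111-fold higher. The 3 members within 2-fold were Plod3 (0.93), P3h1 (0.35) and Colgalt1 (-0.24), enzymes that modify lysine or proline in collagen.

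Proteoglycans, elastic fibre and basement membrane genes were mostly higher too. The counts past 2-fold were 13 of 17, 14 of 17 and 12 of 15, with medians of 3.502, 4.76 and 2.69. Over those measured on both arrays the counts were 9 of 13, 12 of 15 and 11 of 14. The summed proteoglycan signal was 109 in imDCs, 295 in maDCs and 189 in sDCs, so it was highest in maDCs. Lum, the corneal and dermal proteoglycan lumican, was at least 247-fold and Prelp 58.1-fold higher. Fbn1, the fibrillin of microfibrils, stood at -6.42 in imDCs, -4.72 in maDCs, -0.72 in sDCs and -1.64 in antibody-treated sDCs. Hspg2, the basement membrane proteoglycan perlecan, was 39.3-fold higher and Sparc, a collagen-binding protein, 187-fold. Elastin itself, Eln, lay within 2-fold at 0.23, and the proteoglycan gene Gpc1 was lower at -2.42. Vcan, which both fibroblasts and monocytes make, was higher by 1.68.

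Matricellular genes, whose products sit in the matrix and signal to cells, were higher in 11 of 13 cases, with a median of 4.84. Ccn2, a connective tissue growth factor, stood at -4.48 in imDCs, -4.67 in maDCs, 3.90 in sDCs and 3.09 in antibody-treated sDCs and was 334-fold higher. Thbs2 was at least 331-fold, Tnc (tenascin C) 116-fold and Postn (periostin) 61.7-fold higher. The other way stood Ccn3, a member of the same family as Ccn2, at 2.75 in imDCs, 2.28 in maDCs, -4.01 in sDCs and -4.57 in antibody-treated sDCs, a difference of -6.76. Spp1, encoding osteopontin, which macrophages and osteoblasts secrete, stood at 5.96 in imDCs, 7.84 in maDCs, 8.90 in sDCs and 8.88 in antibody-treated sDCs. Spp1 was thus higher in each of the other 3 populations than in imDCs.

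Of the metalloproteinases and their inhibitors, 16 of 20 were higher and 2 lower. Mmp3, stromelysin, was at least 442-fold higher and Timp2, a broad inhibitor, 28.6-fold. Mmp14, a membrane-bound collagenase, stood at 0.18 in imDCs, 4.84 in maDCs, 5.52 in sDCs and 5.19 in antibody-treated sDCs. Mmp2, the gelatinase A of fibroblasts, was lower at -1.98 and Mmp23 at -1.32. Mmp12, macrophage elastase, lay within 2-fold at -0.11. Adam12 was at least 52.2-fold higher, and its probe was not well above background in antibody-treated sDCs.

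Transcription factors of mesenchymal cells were mostly higher, at 13 of 17 with 1 lower and a median of 2.31, and at 7 of 11 measured on both arrays. Twist2, a repressor of bone maturation genes, was at least 323-fold higher (mm9 chr1:93744519-93744577), not well above background in imDCs and maDCs and at 1.05 and 0.16 in sDCs and antibody-treated sDCs. Prrx1, a homeobox gene of limb and marrow mesenchyme, stood at -5.90 in imDCs and 0.94 in sDCs, and Prrx2 was 161-fold higher. Snai2, a factor of epithelial-mesenchymal transition, was 79.5-fold higher, while Zeb1 was lower at -2.46. Of 7 osteoblast genes with a value 4 were higher and none lower. The summed signal of the list was 64.1 in imDCs, 231 in maDCs and 527 in sDCs, and most of it was Spp1. The higher ones were Col1a1 and Spp1, which other cells make too, and the osteoblast transcription factors Dlx5, by a bound, and Sp7, by 1.06. The list median was also 1.06. It was 0.57 after quantile normalization, 0.67 with median scaling, 0.59 with normexp background correction and 0.53 with the authors' deposited values. Runx2, the osteoblast factor, lay at -0.92, and the bone genes Alpl, Ibsp and Dmp1 were not well above background on any array.

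Surface markers of mesenchymal cells and pericytes were less uniform. Of 17 with a value, 9 were higher and 4 lower. Itga11, a collagen-binding integrin, was 181-fold, Pdgfra at least 146-fold, Pdpn (podoplanin) 118-fold and Pdgfrb 18.98-fold higher. Ly6a, which encodes the Sca-1 antigen used to choose the MSCs, stood at -0.68 in imDCs, 1.51 in maDCs, 0.51 in sDCs and -0.20 in antibody-treated sDCs. Thy1 was lower in sDCs, at 6.74 in imDCs, 6.63 in maDCs, 4.72 in sDCs and 3.77 in antibody-treated sDCs, as were Cd34 (-2.67), Vcam1 (-1.55) and Mcam (-1.12). The summed signal of this list was 130.1 in imDCs and 51.9 in sDCs, that is, lower in sDCs although more of its members were higher.

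Contractile genes split, with 7 of 16 higher and 3 lower. Over the 13 measured on both arrays 4 were higher and 3 lower, with a median of -0.39 against 0.58 over all 16. Cnn1, calponin of smooth muscle, was at least 269-fold, Cald1 88.9-fold and Tpm2 33.8-fold higher. Acta2, smooth muscle actin, lay at -0.84 on the probe used, while its other probes ranged from 1.46 to 4.91, so its direction was not settled. Cnn2, a form of calponin outside muscle, was lower at -1.68. Of the endothelial genes, 7 of 14 were lower and 3 higher, but over the 8 measured on both arrays 3 were lower and 2 higher, with a median of -0.01. Pecam1, the CD31 adhesion molecule, was at -4.73, Robo4 at least 88.7-fold lower, and Kdr, a receptor for VEGF, 16.8-fold higher.

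Several growth factor genes of stroma were higher in sDCs. In the insulin-like growth factor (IGF) system 8 of 10 members were higher and none lower. In maDCs 5 of these were higher than in imDCs and 1 lower. Igf2 was at least 636-fold higher (mm9 chr7:149836673-149836709), not well above background in imDCs or maDCs and at 2.03 in sDCs. Igf1, which macrophages also make, stood at 0.88 in imDCs, 3.76 in maDCs, 5.34 in sDCs and 5.44 in antibody-treated sDCs. The receptors differed: Igf2r, which clears IGF2, was 15.97-fold higher and the signalling receptor Igf1r lay at -0.37. Of the factors by which stroma feeds blood cells, 7 of 13 were higher and 3 lower (5 and 2 of 10 measured on both arrays). In maDCs, against the same imDC array, 8 were higher and 0 lower. The summed signal of these factors was 7.97 in imDCs, 77.2 in maDCs and 46.2 in sDCs, so it was highest in maDCs. Cxcl12, which holds progenitors in the marrow, was 29.5-fold higher, and Kitl, stem cell factor, at least 8.07-fold. Csf1, the growth factor of macrophages, lay within 2-fold at -0.12, and Il6 was lower at -1.57.

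Wnt and TGF-beta genes were higher in 11 of 18 and 11 of 19 cases, with 0 and 2 lower. Over genes measured on both arrays the counts were 6 of 13 Wnt genes, with a median of 0.67 against 1.63 over all 18, and 10 of 16 TGF-beta genes. In maDCs, against the same imDC array, 6 Wnt and 7 TGF-beta genes were higher. The summed TGF-beta signal was 29.3 in imDCs, 110.9 in maDCs and 57.8 in sDCs. That of the Wnt genes was 0.97 in imDCs, 1.74 in maDCs and 7.59 in sDCs. Secreted antagonists and receptors headed the Wnt genes, with Dkk2 at least 234-fold, Sfrp1 at least 173-fold and the receptor Fzd1 85.9-fold higher. Grem1, which binds bone morphogenetic proteins, was at least 93.8-fold higher, and Inhba, the activin A subunit, was lower at -1.13. Tgfb1 lay at -0.06 and its receptor Tgfbr2 at 3.11.

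Several genes with the largest differences among those measured on both arrays belonged to none of these lists. Rarres2, which encodes the chemoattractant chemerin, was 788-fold higher (mm9 chr6:48519775-48519969), at -6.62 in imDCs, -2.85 in maDCs, 2.999 in sDCs and 2.13 in antibody-treated sDCs. Itga8, an integrin of mesenchymal cells, was 612-fold higher and 8.37 (log2) on another probe. Prss23, a secreted serine protease, was 534-fold higher, Fabp7, a fatty acid carrier, 225-fold, and Pmp22, a membrane protein best known from peripheral nerve, 211-fold. Mgarp, a mitochondrial protein gene, stood at -5.57 in imDCs, 1.15 in maDCs and 3.08 in sDCs. Rarres2, Itga8 and Prss23 were close to the lowest level that counted as well above background in imDCs, -7.28, whereas Mgarp was also high in maDCs.

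**Figure D3:**
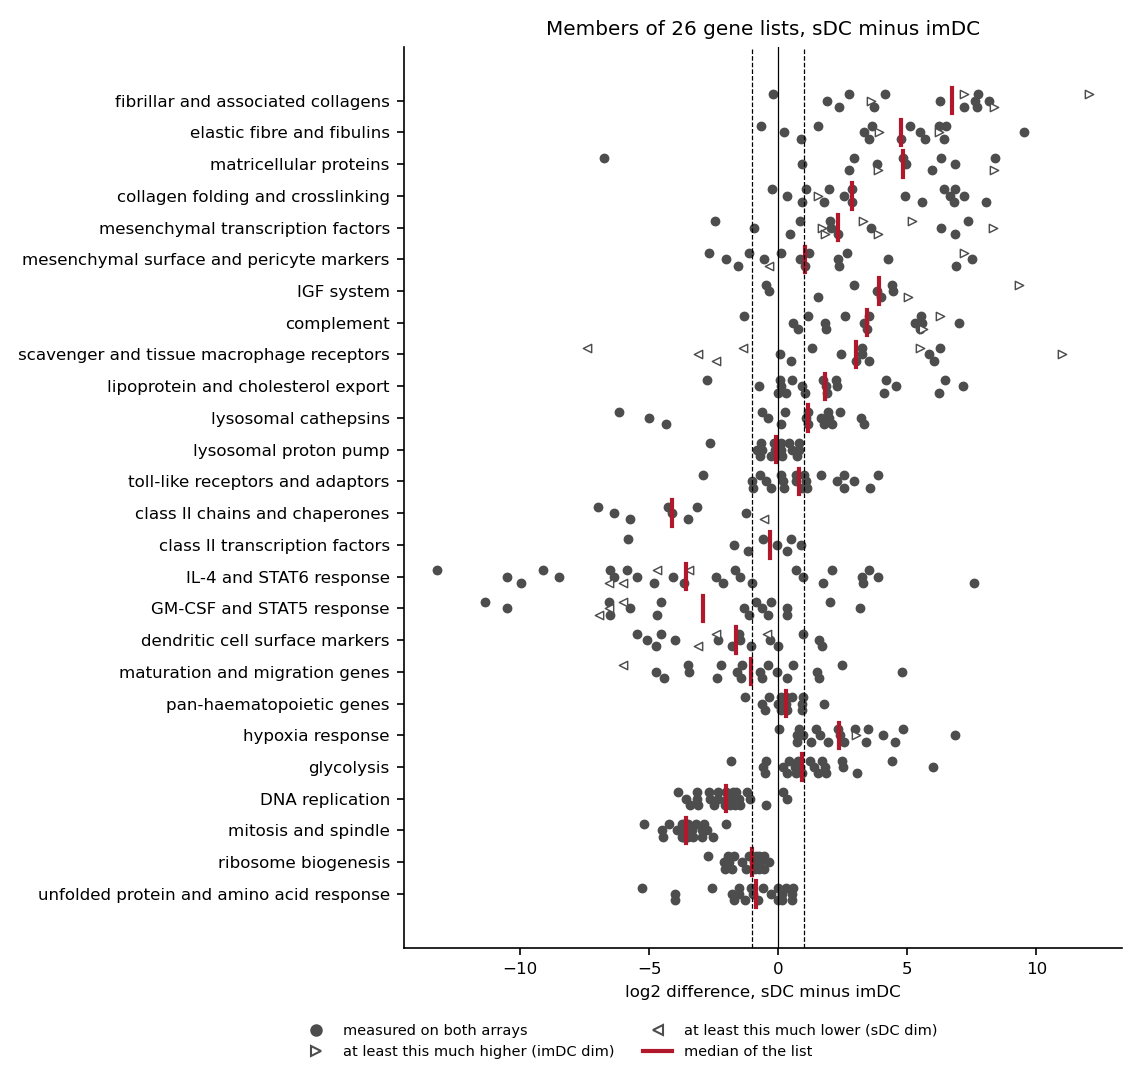
Each symbol is 1 gene with a value, placed by its log2 difference, sDC minus imDC, in 26 lists; filled circles were measured on both arrays, open triangles are bounds that point away from 0, red bars are list medians and dashed lines mark 2-fold. Medians run from 6.72 for the collagens to -4.12 for the class II genes, against 0.21 over all genes.

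Many macrophage genes were higher in sDCs as well, and many genes of these lists were also higher in maDCs. Against the same imDC array, maDCs had 10 complement genes higher and 0 lower. Their counts were 8 and 4 for scavenger and tissue macrophage receptors, 10 and 1 for cathepsins and cystatins, and 11 and 0 for cholesterol export. For macrophage transcription factors they were 13 and 5. The summed cathepsin signal was 843 in imDCs, 1687 in maDCs and 1783 in sDCs. Complement genes were higher in 14 of 17 cases, with a median of 3.44. The summed signal of the list was 295 in imDCs, 306 in maDCs and 241 in sDCs, that is, lower in sDCs although most members were higher. C1qa, C1qb and C1qc, the chains of C1q, are made mainly by macrophages and some DCs. C1qa (mm9 chr4:136452409-136452468) stood at -4.59 in imDCs, -3.24 in maDCs, 0.998 in sDCs and 0.14 in antibody-treated sDCs, and C1qb was 11.4-fold higher. The proteases C1s1 and C1ra, which fibroblasts also make, were 45.6-fold and 9.99-fold higher, and their inhibitor Serping1 at least 76.1-fold. C3, the central component, went the other way at -1.32. C3ar1, the receptor for its fragment C3a, was 39.02-fold higher.

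Scavenger and tissue macrophage receptors were higher in 11 of 17 cases and lower in 4, all 4 of them bounds. Of the 11 measured on both arrays 9 were higher and 0 lower. Cd163, the haemoglobin scavenger, was at least 44.9-fold, Siglec1 77.2-fold and Stab1 65.2-fold higher. Mrc1, the mannose receptor, stood at 0.84 in imDCs, -2.20 in maDCs, 4.07 in sDCs and 3.81 in antibody-treated sDCs. Adgre1, the F4/80 antigen, stood at 3.62 in imDCs, 6.45 in maDCs, 6.06 in sDCs and 5.88 in antibody-treated sDCs, a difference of 2.44, and 0.83 on another probe. The 2 genes had different patterns: Mrc1 was low in maDCs, and Adgre1 was at least as high in maDCs as in sDCs. Clec4f, a lectin of liver macrophages, was at least 170.4-fold lower, and Lyve1, Cd209a and Adgre4 were lower as well, all with no signal well above background in sDCs, while Timd4, another receptor of resident macrophages, was not well above background in sDCs either.

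Among transcription factors, Maf, which macrophages express, stood at -0.52 in imDCs, 2.32 in maDCs, 4.97 in sDCs and 4.61 in antibody-treated sDCs, a 45.01-fold difference (mm9 chr8:118227736-118227795). Over the list 10 of 23 were higher and 4 lower. Spi1, which encodes PU.1, lay at -0.86, while Tfec (-3.98), Egr2 (-2.16), Spic (-1.88) and Cebpa (-1.57) were lower. Csf1r, the receptor for the macrophage growth factor, stood at 4.02 in imDCs, 5.15 in maDCs, 6.90 in sDCs and 6.78 in antibody-treated sDCs and was 7.34-fold higher. The GM-CSF receptor chains Csf2ra and Csf2rb lay at -0.62 and -1.15.

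Genes for uptake of dying cells were higher in 8 of 17 cases and lower in 3, and Fc receptors and their chains in 5 and 1 of 10. Gas6, the bridge between dying cells and TAM receptors, was 172-fold higher and its receptor Mertk 13.5-fold, whereas the related receptor Axl was lower at -2.59. Trem2, a lipid receptor of macrophages, stood at 2.91 in imDCs, 5.23 in maDCs, 7.09 in sDCs and 6.85 in antibody-treated sDCs. Fcgr1, the high-affinity receptor for IgG, was 7.13-fold higher. Of 18 cathepsin and cystatin genes 11 were higher, such as Ctsk (2.39) and Ctsd (1.94). The 3 lower ones were Ctsg (-6.15), a protease of neutrophil granules, Cst7 (-4.99), an inhibitor, and Ctse (-4.33). The lower Ctsg went with the neutrophil list, which was lower as given below; its part in the result was not tested.

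Lysosomal hydrolases were higher in 8 of 25 cases, a share near the 25.4% of all genes, with none lower, while the subunits of the lysosomal proton pump lay within 2-fold in 16 of 17. Their medians were 0.87 and -0.07. Npc2, which hands cholesterol out of the lysosome, was higher by 1.96. Genes that export cholesterol were higher in 12 of 20. Abca1, the cholesterol pump, stood at -2.22 in imDCs, 3.02 in maDCs, 4.23 in sDCs and 4.12 in antibody-treated sDCs, and Pltp, a phospholipid transfer protein, was 144-fold higher. Nr1h3, the sterol sensor LXR-alpha that drives both genes, lay at 0.12, and Lpl, lipoprotein lipase, was lower at -2.77.

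**Figure D4:**
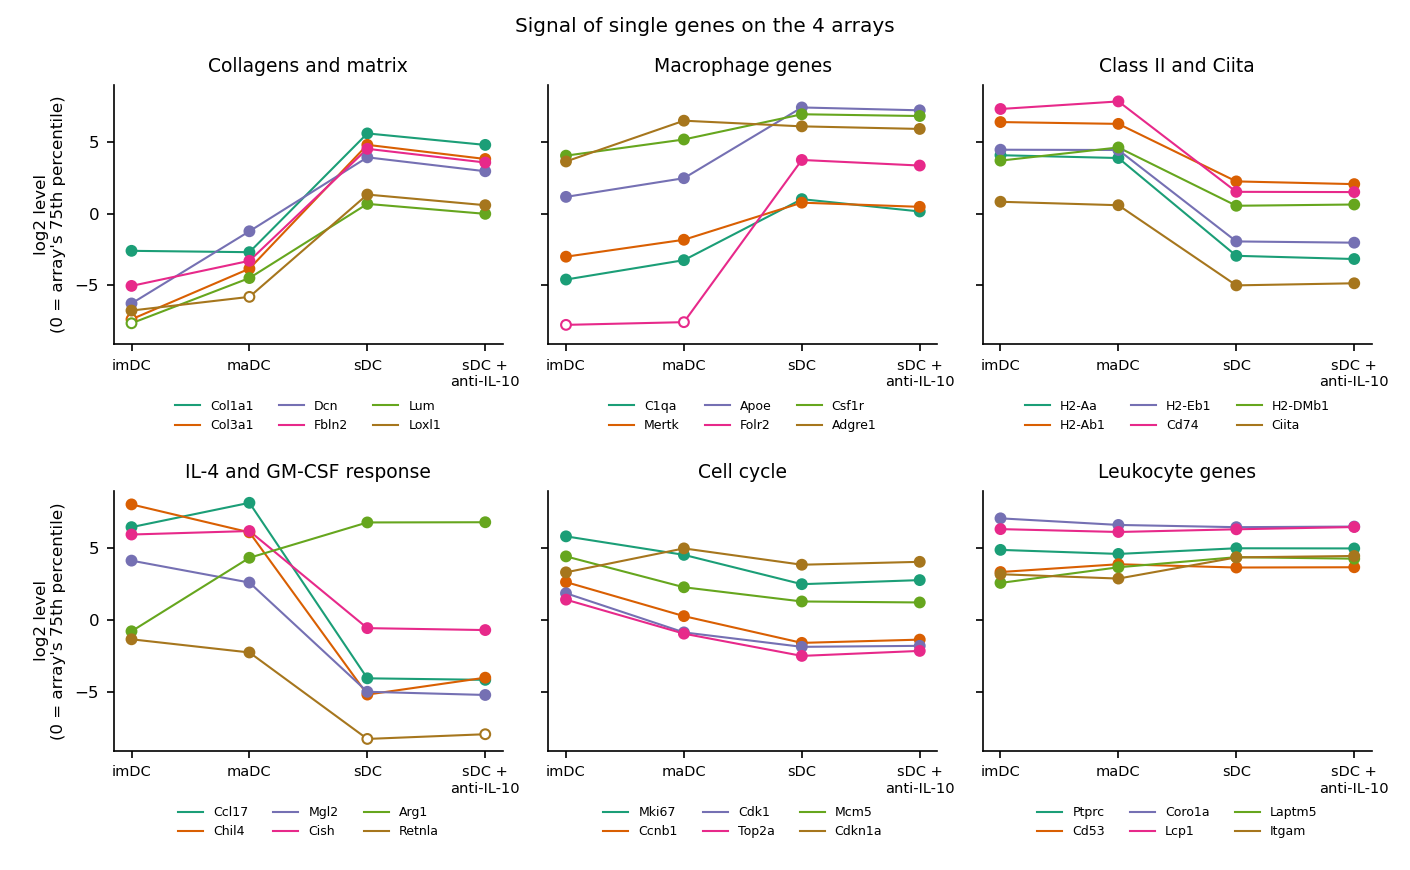
The log2 level of 36 genes is shown on the imDC, maDC, sDC and antibody-treated sDC arrays, 1 line per gene in 6 panels; open circles are not well above background, and lines only join the values of 1 gene. Collagen and macrophage genes are higher and the class II, IL-4 response and cell cycle genes lower in both sDC populations than in imDCs, except Arg1 and Cdkn1a. Ptprc stays between 4.59 and 4.99.

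MHC class II genes were lower in sDCs in 8 of 9 cases, with a median of -4.12; the other, H2-Ob, was bounded at under 2-fold. The summed signal of the list was 295 in imDCs, 369 in maDCs, 12.1 in sDCs and 11.7 in antibody-treated sDCs. H2-Eb1, a chain of the I-E molecule (mm9 chr17:34452050-34452511), stood at 4.43 in imDCs, 4.41 in maDCs, -1.94 in sDCs and -2.03 in antibody-treated sDCs. Cd74, the invariant chain that guides class II through the cell, stood at 7.26 in imDCs, 7.79 in maDCs, 1.51 in sDCs and 1.49 in antibody-treated sDCs. Both stayed measurable in sDCs. H2-Aa and H2-Oa were 127-fold and 11.2-fold lower. The genes of the peptide editor differed in size: H2-DMb1 was 8.80-fold and H2-DMb2 19.4-fold lower, and their partner H2-DMa 2.40-fold.

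Ciita (mm9 chr16:10526303-10526362) stood at 0.82 in imDCs, 0.58 in maDCs, -5.00 in sDCs and -4.85 in antibody-treated sDCs, a 56.1-fold difference. The factors with which CIITA works on class II promoters differed less. Rfx5 and Nfyc were lower at -1.16 and -1.70, while Rfxank (-0.05), Rfxap (0.50), Nfya (0.88) and Nfyb (-0.59) lay within 2-fold. Class I genes showed another pattern. H2-K1 and H2-D1, which present peptides to CD8 T cells, were 3.31-fold and 3.87-fold higher, with the limit that near-identical class I genes can share probe signal. Of 17 class I loading and immunoproteasome genes 6 were higher, 2 lower and 9 within 2-fold, with a median of -0.07. The summed signal of this list was 539 in imDCs, 1342 in maDCs and 1033 in sDCs. The peptide pump gene Tap1 was lower at -1.11 and Tap2 lay at -0.70, and Calr, a chaperone, was lower at -2.13.

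Promoter sequence is shown for class II genes because they were lower together. Class II promoters carry a CCAAT box, bound by the factor NF-Y. In RefSeq's GRCm38.p6 annotation, the letters CCAAT, on either strand, were found in the 250 bases before the start in 8 of 9 windows of the list's genes, and in 33.8% of the 32851 windows of all genes. The share was 33.1% among windows of genes higher in sDCs and 37.2% among those of genes lower. Below are the 120 bases before the start of 5 of these genes, 5′ to 3′ on the gene's strand, with the box (CCAAT, or ATTGG where it lies on the other strand) in capitals. The box began between -90 and -35 bases from the start.
H2-Aa, chr17:34287824-34287943, minus strand: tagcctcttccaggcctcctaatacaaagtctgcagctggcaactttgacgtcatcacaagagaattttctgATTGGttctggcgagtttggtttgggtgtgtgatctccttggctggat
H2-Eb1, chr17:34305747-34305866, plus strand: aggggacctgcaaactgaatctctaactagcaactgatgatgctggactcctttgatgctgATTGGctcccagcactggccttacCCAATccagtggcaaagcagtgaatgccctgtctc
H2-DMb1, chr17:34153071-34153190, plus strand: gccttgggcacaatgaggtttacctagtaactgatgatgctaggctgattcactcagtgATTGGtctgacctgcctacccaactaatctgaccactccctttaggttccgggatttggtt
H2-DMb2, chr17:34145129-34145248, plus strand: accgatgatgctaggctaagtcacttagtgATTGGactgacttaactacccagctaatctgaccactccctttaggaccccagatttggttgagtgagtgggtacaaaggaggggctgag
H2-Oa, chr17:34092259-34092378, plus strand: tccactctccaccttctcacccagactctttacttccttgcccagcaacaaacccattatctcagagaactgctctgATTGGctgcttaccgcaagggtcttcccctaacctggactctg

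Known targets of IL-4 and STAT6 were mostly lower in sDCs, with 21 of 30 lower, 7 higher and a median of -3.56, which rests on a bound. Over the 26 measured on both arrays 17 were lower and 7 higher, with a median of -2.28. Retnla, which encodes the secreted protein RELM-alpha, stood at -1.34 in imDCs and -2.26 in maDCs and was not well above background in either sDC population. Pdcd1lg2, which encodes the inhibitory ligand PD-L2, stood at 1.20 in imDCs and -5.18 in sDCs, and Il4i1, an amino acid oxidase, was 58.2-fold lower. Ccl24, an attractant of eosinophils, was 28.4-fold and Socs1, a brake on cytokine signals, 12.7-fold lower. Some genes of the list went the other way. Arg1, arginase 1 (mm9 chr10:24636194-24636253), stood at -0.78 in imDCs, 4.33 in maDCs, 6.78 in sDCs and 6.80 in antibody-treated sDCs and Ch25h, which makes 25-hydroxycholesterol, was 14.6-fold higher. The receptor Il4ra was higher by 2.09 and Stat6 lay at 0.69. Mrc1 and Fn1, which macrophages and fibroblasts make in other settings too, were 9.37-fold and 11.3-fold higher. Eosinophils and mast cells respond to IL-4 as well, and the summed signals of their lists were 32.6 and 32.5 in imDCs and 0.156 and 3.87 in sDCs; their part in the result was not tested.

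A STAT6 site, written as TTC and GAA parted by 4 bases, was found in the 250 bases before the start in 4 of the 30 windows of this list's genes (those of Ccl17, Fcer2a, Pdcd1lg2 and Retnla) and in 5.85% of all windows. The share was 4.30% among windows of genes higher in sDCs, 6.42% among those of genes lower and 4.63% among those within 2-fold. Of these 4 genes, Fcer2a, the low-affinity IgE receptor, was higher by 1.72, and the other 3 were lower, Ccl17 by 1455-fold. The 200 bases before their starts are shown with the matching letters in capitals; the site began at -154 in Ccl17, -82 in Pdcd1lg2 and -145 in Retnla.
Ccl17, chr8:94810253-94810452, plus strand: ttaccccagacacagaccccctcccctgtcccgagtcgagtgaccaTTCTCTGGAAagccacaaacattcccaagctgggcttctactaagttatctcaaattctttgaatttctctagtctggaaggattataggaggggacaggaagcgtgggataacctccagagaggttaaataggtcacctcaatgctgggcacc
Pdcd1lg2, chr19:29410719-29410918, plus strand: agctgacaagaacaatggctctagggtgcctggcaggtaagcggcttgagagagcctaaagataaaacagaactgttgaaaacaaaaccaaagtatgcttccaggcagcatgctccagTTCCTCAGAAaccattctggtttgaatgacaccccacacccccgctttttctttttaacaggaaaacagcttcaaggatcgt
Retnla, chr16:48842409-48842608, plus strand: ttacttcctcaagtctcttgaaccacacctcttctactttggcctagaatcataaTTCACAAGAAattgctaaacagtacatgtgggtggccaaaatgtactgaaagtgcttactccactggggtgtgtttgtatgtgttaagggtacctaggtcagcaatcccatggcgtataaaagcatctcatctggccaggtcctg

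Genes that respond to GM-CSF and STAT5 numbered 20, of which 12 were lower and 2 higher; of the 17 measured on both arrays 9 were lower, with a median of -1.15. Cish, a STAT5-induced brake on cytokine receptors (mm9 chr9:107204196-107204255), stood at 5.94 in imDCs, 6.18 in maDCs, -0.57 in sDCs and -0.70 in antibody-treated sDCs, and Socs2 at 3.28 in imDCs, 4.56 in maDCs, -2.46 in sDCs and -2.98 in antibody-treated sDCs. Cish was 90.9-fold and Socs2 53.2-fold lower. Pparg, a nuclear receptor that GM-CSF induces in alveolar macrophages, stood at 3.90 in imDCs, 0.44 in maDCs, -2.65 in sDCs and -2.75 in antibody-treated sDCs, so it was lower in maDCs as well. Car4, a carbonic anhydrase, was at least 125-fold lower. Bcl2l1, the survival gene of BCL-XL, and Fabp4, a fatty acid carrier, were higher by 1.99 and 3.16.

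DC surface markers were lower more often than higher, while the summed signal of the list was 92.8 in imDCs and 130.5 in sDCs. Of the markers 12 of 18 were lower, and of the 15 measured on both arrays 10 were. Dpp4 was 43.96-fold, Cd24a 33.9-fold and Itgae, the CD103 integrin, 26.8-fold lower. The 2 higher ones were Sirpa (1.70), which macrophages share, and Bst2 (1.59), an interferon-induced gene. Transcription factors were split, 6 higher and 6 lower of 19, with a summed signal of 124 in imDCs and 274 in sDCs. Irf4 (mm9 chr13:30858459-30858518) was at 0.51 in imDCs and 1.71 in maDCs and not well above background in sDCs. Zbtb46, a marker factor of conventional DCs, was lower at -1.98, and Bcl6, Id2 and Zeb2 were higher by 3.28, 2.54 and 2.28. Dcstamp, needed for fusion of DCs and osteoclasts, was 100.4-fold lower.

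Of 20 genes that mark maturation 10 were lower and 4 higher in sDCs against imDCs (9 and 4 of 19 measured on both arrays), although both sDCs and maDCs had received LPS; in maDCs against the same imDC array 17 were higher. Fscn1, the actin bundler of mature DCs, stood at 0.45 in imDCs, 2.72 in maDCs, -3.004 in sDCs and -3.65 in antibody-treated sDCs, and Ccl22, a chemokine of mature DCs, was at least 63.8-fold lower. Tnfsf4, the OX40 ligand, stood at 1.27 in imDCs, 3.24 in maDCs, -3.15 in sDCs and -5.38 in antibody-treated sDCs. Cd70, a costimulator of the TNF family, was higher by 2.47 in sDCs. Aldh1a2, which makes retinoic acid, stood at 5.27 in imDCs, 5.45 in maDCs, -3.27 in sDCs and -4.35 in antibody-treated sDCs and was 373-fold lower, while the retinoid carrier Crabp1 was at least 217-fold higher.

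Cytokine and chemokine genes did not move as a block. Of 14 proinflammatory cytokines 4 were higher and 5 lower, with a median of 0.05 that turned negative in 3 other scalings and without a filter on dim probes. In maDCs 12 were higher than in imDCs. Il12b, the p40 chain of IL-12, stood at -2.82 in imDCs, 6.45 in maDCs, -2.85 in sDCs and -3.56 in antibody-treated sDCs, and Il18 at -3.55 in imDCs, -2.17 in maDCs, 1.40 in sDCs and 1.58 in antibody-treated sDCs. The former was high in maDCs, the latter in both sDC populations. Il15, a survival factor of lymphocytes, was higher by 2.17, and Il1a was lower at -1.70.

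Of the CC chemokines 10 of 17 were higher and 4 lower, which were Ccl1, Ccl17, Ccl22 and Ccl24. Over the 14 measured on both arrays 9 were higher and 2 lower. Ccl8 stood at -3.55 in imDCs, 0.33 in maDCs, 2.09 in sDCs and 1.72 in antibody-treated sDCs, Ccl12 was 29.5-fold and Ccl7 8.30-fold higher, and Ccl11, an eosinophil attractant made by fibroblasts, at least 15.3-fold. Of the CXC and CX3C group 8 of 13 were higher and 3 lower, with Cxcl14 31.5-fold, while Cxcl10, an interferon-induced attractant, was lower at -2.56. Among the receptors, Ackr3, which takes up CXCL12, was 139-fold higher. Ccr6 was lower at -2.36.

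Interferon-stimulated genes lay mostly within 2-fold of imDCs, with 11 of 26 higher, 1 lower and a median of 0.67; against the same array, all 26 were higher in maDCs. Isg15 stood at 0.07 in imDCs, 3.42 in maDCs, 0.64 in sDCs and 0.87 in antibody-treated sDCs, and Ifitm3, an antiviral membrane protein, at 4.88 in imDCs, 6.94 in maDCs, 7.13 in sDCs and 7.05 in antibody-treated sDCs. For NF-kB subunits and feedback genes 11 of 16 were within 2-fold. Toll-like receptors and adaptors had 9 of 22 higher. Cd14, the LPS co-receptor, stood at 4.22 in imDCs, 7.27 in maDCs, 8.10 in sDCs and 8.07 in antibody-treated sDCs, Tlr3 was 11.7-fold higher, the LPS receptor Tlr4 lay at 0.68 and Myd88 was lower at -1.02.

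Of 17 genes of the IL-10 receptor and STAT3 pathway 10 were higher and 2 lower. Il10 stood at -6.20 in imDCs, -2.15 in maDCs, -3.71 in sDCs and -3.96 in antibody-treated sDCs. It was thus lowest in imDCs, and the antibody-treated and untreated sDCs differed by less than 2-fold. Il10rb, a receptor chain, was higher by 2.05, Socs3, the feedback inhibitor, stood at 3.33 in imDCs, 5.97 in maDCs, 6.15 in sDCs and 6.32 in antibody-treated sDCs, and the kinase Tyk2 was lower at -1.65. Among anti-inflammatory mediators, Nos2, which makes nitric oxide in activated macrophages, was at least 45.2-fold higher, and Ido1, which degrades tryptophan, at least 21.1-fold lower. The arachidonic acid enzymes parted: Ptgs2 and Ptges, of prostaglandin E2 synthesis, were 7.77-fold and 10.4-fold higher, while Ptgs1 was 22.4-fold and Ltc4s, of leukotriene C4 synthesis, 20.4-fold lower.

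Genes of granulocytes, mast cells and progenitors were mostly lower in sDCs than in imDCs. Of 17 neutrophil genes 13 were lower and 3 higher, and their summed signal was 1308 in imDCs, 159 in maDCs, 219 in sDCs and 337 in antibody-treated sDCs. Ngp, a granule protein (mm9 chr9:110324266-110324814), stood at 6.22 in imDCs, -1.22 in maDCs, -2.99 in sDCs and -1.28 in antibody-treated sDCs. Mpo, myeloperoxidase, was 110.1-fold lower. S100a8, a calcium-binding protein of neutrophils and monocytes, stood at 8.08 in imDCs, 4.03 in maDCs, 6.14 in sDCs and 6.42 in antibody-treated sDCs, and Mmp9 and Fpr1, which macrophages share, were higher by 3.63 and 2.75. Eosinophil genes summed to 32.6 in imDCs, 4.33 in maDCs and 0.156 in sDCs, where the defining gene Epx was not well above background. Of these genes 8 of 9 were lower in sDCs, 3 of 4 among those measured on both arrays. Mast cell and basophil genes summed to 32.5 in imDCs, 198 in maDCs and 3.87 in sDCs, so they were highest in maDCs. In sDCs 10 of 12 were lower than in imDCs, Cpa3 219.8-fold and Hdc, the histamine enzyme, 137-fold. In maDCs, against the same imDC array, 12 were higher and 0 lower. Progenitor genes were lower in 8 of 15 cases, with Myb 67.8-fold and Gfi1 114-fold lower.

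Lymphoid genes went both ways. Of 16 T, NK and innate lymphoid genes 4 were higher, a share near the 25.4% of all genes, and 5 lower. Over the 13 measured on both arrays 4 were higher and 2 lower. Il7r, the IL-7 receptor chain, was 11.2-fold higher, while Cd3e lay at 0.71 and Ncr1, a defining NK gene, was not well above background on any array. Of 10 B and plasma cell genes 4 were higher and 1 lower, and of the 8 measured on both arrays 3 were higher and 0 lower. Of 8 erythroid genes 1 was higher and 3 lower. The summed signal of the list was 36.7 in imDCs, 90.2 in maDCs and 2.85 in sDCs. Klf1, an erythroid transcription factor, lay at 0.13. Car2, a carbonic anhydrase of red cells and osteoclasts, was 195-fold lower.

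Cell cycle genes were lower in sDCs as a group. All 25 mitosis genes were lower, with a median of -3.57, and 23 of 26 replication genes were lower, with a median of -2.01. Mki67, the Ki-67 antigen, stood at 5.81 in imDCs, 4.53 in maDCs, 2.49 in sDCs and 2.77 in antibody-treated sDCs. Kif11, the motor that parts the spindle poles (mm9 chr19:37495755-37495814), stood at 0.63 in imDCs, -2.12 in maDCs, -4.56 in sDCs and -3.92 in antibody-treated sDCs and had the largest fold of the mitosis list, 36.6-fold lower. Cdk1, the mitotic kinase, was 13.2-fold lower on the probe used, and its other probe lay at 0.87, so Cdk1 was not settled. Levels of Mki67 and Kif11 in maDCs lay between those in imDCs and sDCs. Of replication genes Cdc45, part of the helicase, was 14.8-fold and Rrm2, of ribonucleotide reductase, 11.99-fold lower, and the 3 within 2-fold were Pcna (-0.46), Lig1 (0.17) and Cdt1 (0.32). The cyclins diverged: Ccnd1 stood at -1.55 in imDCs, -2.39 in maDCs, 2.75 in sDCs and 2.70 in antibody-treated sDCs and was 19.7-fold higher, whereas Ccnd2 (-1.81) and Ccnd3 (-1.92) were lower. The inhibitor Cdkn1c was 7.36-fold higher and Cdkn1a, p21, lay at 0.53. The progenitor list was lower on the same array; its part in these differences was not tested.

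**Figure D5:**
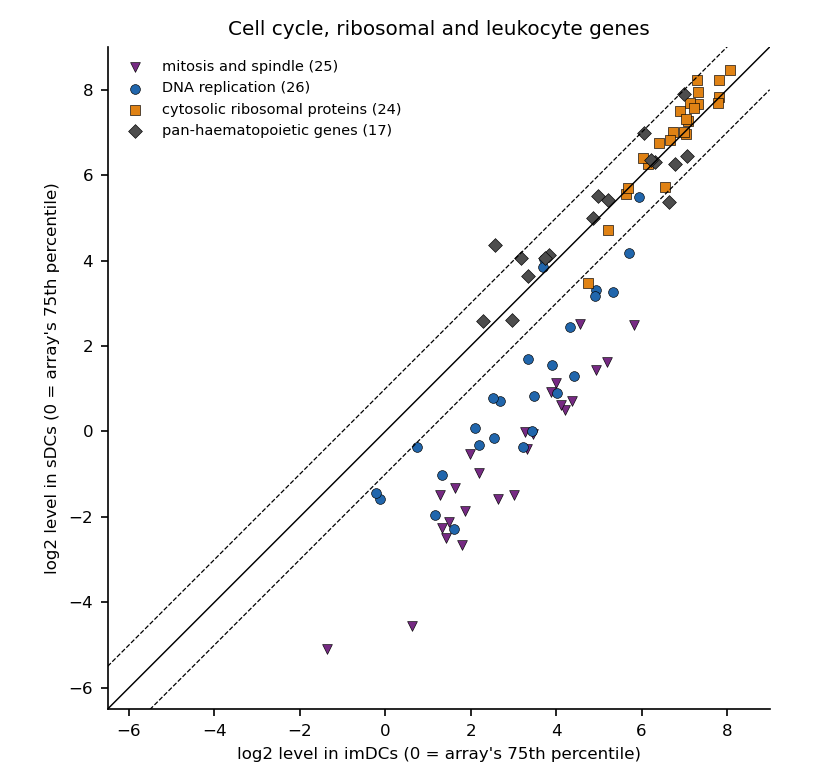
The log2 level in sDCs is plotted against that in imDCs for the mitosis, replication, ribosomal protein and leukocyte lists; the solid line is equality and dashed lines mark 2-fold. All 25 mitosis genes lie under the lower dashed line, while 23 of 24 ribosomal protein genes and 15 of 17 leukocyte genes lie between the dashed lines.

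Mitotic genes share a promoter element called CHR, and sequence is shown for that reason. The letters TTTGAA, on either strand, were found in the 250 bases before the start in 7 of the 21 windows of mitosis genes (Ccnb2, Cdc20, Cdk1, Kif11, Mki67, Top2a and Ube2c), against 15.99% of all windows, 11.8% of those of genes higher, 13.6% of those lower and 10.7% of those within 2-fold. The 100 bases before the start follow for 5 of them, with TTTGAA, or TTCAAA where it lies on the other strand, in capitals. All 5 have the letters within the last 29 bases before the start, and Cdk1 has them again at -71. Cdc20, the activator of anaphase, was 11.9-fold and Top2a, topoisomerase II, 15.04-fold lower, and Ube2c, a ubiquitin carrier of anaphase, was at -3.52.
Cdk1, chr10:69352913-69353012, minus strand: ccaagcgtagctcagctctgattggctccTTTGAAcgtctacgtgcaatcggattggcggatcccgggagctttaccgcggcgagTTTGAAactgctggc
Cdc20, chr4:118437344-118437443, minus strand: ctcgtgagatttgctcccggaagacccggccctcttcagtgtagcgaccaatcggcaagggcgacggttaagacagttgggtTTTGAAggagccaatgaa
Kif11, chr19:37376282-37376381, plus strand: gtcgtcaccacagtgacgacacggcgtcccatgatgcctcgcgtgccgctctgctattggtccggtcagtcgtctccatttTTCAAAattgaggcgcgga
Top2a, chr11:99024190-99024289, minus strand: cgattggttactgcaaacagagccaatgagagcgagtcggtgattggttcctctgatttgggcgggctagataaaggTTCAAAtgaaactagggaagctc
Ube2c, chr2:164769829-164769928, plus strand: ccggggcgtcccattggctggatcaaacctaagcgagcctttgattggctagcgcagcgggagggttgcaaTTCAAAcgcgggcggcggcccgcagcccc

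Biosynthetic genes were lower to a smaller extent. Of 20 ribosome biogenesis genes 10 were lower and none higher, with Dkc1, a pseudouridine synthase, at -2.72 and Ncl, nucleolin, at -1.79. Cytosolic ribosomal proteins lay within 2-fold in 23 of 24, the exception being Rpl4 at -1.27. In the amino acid and unfolded protein response 10 of 22 were lower. Phgdh, the first enzyme of serine synthesis (mm9 chr3:98117098-98117157), stood at 6.07 in imDCs, 5.00 in maDCs, 0.80 in sDCs and 0.56 in antibody-treated sDCs, and Psat1, the next enzyme of that path, was 15.97-fold lower. Slc7a5, a transporter of large amino acids, was 16.2-fold lower. Tfrc, which takes up iron-laden transferrin, was 44.2-fold lower.

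Cholesterol synthesis genes were lower in 10 of 22 cases. Fdps, which makes farnesyl diphosphate, was 10.97-fold lower, and Srebf2, the transcription factor of the pathway, lay at -0.14. Respiratory chain genes lay within 2-fold in 22 of 26, with the ATP synthase chains Atp5a1 and Atp5b lower at -1.18 and -1.12.

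Of the glycolysis genes 11 of 23, and of the hypoxia genes 15 of 20, were higher in sDCs, with medians of 0.92 and 2.34. Eno2, an enolase, was 63.7-fold higher, and Pdk1, a pyruvate dehydrogenase kinase, stood at -0.68 in imDCs, 0.70 in maDCs, 3.72 in sDCs and 3.60 in antibody-treated sDCs. Slc2a1, the glucose carrier GLUT1, stood at 4.69 in imDCs, 6.49 in maDCs, 7.22 in sDCs and 7.19 in antibody-treated sDCs. Bnip3, a mitophagy receptor, was 16.8-fold, Vegfa 10.6-fold and Ndrg1 11.3-fold higher. Hif1a, the oxygen-regulated factor itself, was higher by 1.62. In maDCs 11 hypoxia genes were higher than on the same imDC array.

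Antibody-treated sDCs and maDCs were set against the same imDC array, which all of these comparisons share. In antibody-treated sDCs collagens were higher in 15 of 16 genes, class II genes lower in 8, IL-4 and STAT6 genes lower in 20, and mitosis genes lower in 25. Other counts were farther from those of sDCs: 7 Wnt genes were higher against 11, and 7 megakaryocyte and platelet genes lower against 2. The counts of the first 4 lists for maDCs were 7, 0, 7 and 23. The summed collagen signal of 89.8 in antibody-treated sDCs was below the 155 of sDCs.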

How the data were processed

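Each sample was 1 one-colour Agilent array of 0.5 µg RNA labelled with Cy3, per the labels' protocols. The deposited scanner files hold spot intensity processed by Agilent Feature Extraction, version 10.5.1.1 per the file headers and 9.1 per the submitters' processing notes. The authors' deposited value table holds log2 values whose correlation with the scanner values was 0.997 to 1.00 on each array, and the median of every array was 6.30. Its columns share 1 distribution, as quantile normalization gives, though no method is stated, and it served as an alternative.

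Control and outlier spots were left out, spots of a probe were averaged, and log2 intensity was set relative to the 75th percentile of each array. A probe was kept when at least 50% of its spots on the sDC or the imDC array were marked well above background (29821 of 41174 probes). The probe with the highest mean level over the 4 arrays stood for its gene. Of the probes, 25089 were named by accession, 6339 by symbol and 1639 by an older symbol through RefSeq, and 8107 had no name. Where 1 array was dim, the higher of its lowest well-above-background signal and the probe's own signal served as the floor of a bound. No spots were saturated. With 1 array a group the call was a 2-fold difference and no p-value was computed; the script was tested on simulated data.

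The genes compared and the gene lists were chosen with earlier results of these data known. Genes named are the 15 largest differences in each direction among genes measured on both arrays, the 8 largest bounds in each direction, at most 10 members of each list (the 5 farthest from 0 in each direction, and members within 2-fold) and 14 fixed genes. Not all of these are printed, and Adgre1, C1qb, C1ra, C3ar1, Ccnd2, Ccnd3, Cdc20, Cdk1, Cish, Col1a2, Col5a2, Col6a1, Ctsd, Fbn1, H2-DMa, H2-DMb1, H2-Oa, Hif1a, Il10rb, Il4i1, Ly6a, Mki67, Mpo, Ncl, Retnla, S100a8, Socs2, Tgfbr2, Timp2, Ube2c, Vcan and Vegfa were named after their values were seen. Promoter windows are RefSeq's, GRCm38.p6, 250 bases before the start, and probe positions are mm9 per the files; no position was converted. Python 3.11.15, numpy 2.4.6, pandas 2.3.3, matplotlib 3.10.9, R 4.3.3 and limma 3.58.1 were used. Alternatives were 3 scalings or sources of values, normexp background correction with an offset of 50, 2 filters and the median over probes.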

Additional observations from a re-analysis of the deposited data

Results flagged for a closer look

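Probes without a gene name in the tables used here stood outside the gene comparison. Of 8107 such probes, 3828 had a value; 1448 of these (37.8%) were higher in sDCs than in imDCs and 365 (9.54%) were lower, with a median difference of 0.64. Over all named genes the shares were 25.4% and 16.1%, and in the dimmest of 5 equal bins of named genes measured on both arrays 35.9% and 10.2%, with a median of 0.64 as well. The unnamed probes were set apart because they carry signal that no gene result uses. No outlying sample could be sought, since each population was 1 array.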

How the results depend on the processing

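Over 7 alternatives (quantile normalization, median scaling, normexp background correction, the authors' deposited values, only genes above background on both arrays, no filter on dim probes, and the median over a gene's probes), the counts of higher and lower genes stayed within 1.5 times of 3815 and 2421, except that without a filter on dim probes 6164 genes were higher. List medians changed sign in 11 lists under at least 1 alternative, among them the proinflammatory cytokines, the ribosomal proteins and the contractile genes (-0.39 over genes above background on both arrays). No paired analysis was possible because each population was 1 array, and no array could be left out. Precision is limited by the number of arrays, and the spread between cultures is not known. Genes near background carry the least certain differences: the lowest level that counted as well above background was -7.28 in imDCs and -6.04 in sDCs.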

Other observations

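Iron genes parted in sDCs. Slc11a1, a metal transporter of phagosomes, was 12.3-fold higher and Slc40a1, the iron exporter ferroportin, 49.9-fold lower, at 3.05 in imDCs, 0.08 in maDCs, -2.59 in sDCs and -1.83 in antibody-treated sDCs. Immediate early genes, which respond within minutes to stimulation, were higher in 9 of 22 cases and lower in 3. Jun was higher by 2.44 and Fosl2 by 3.11, while Egr3 was lower at -2.80 and Nr4a3 at least 20.6-fold lower. In maDCs, on the same imDC array, 17 were higher.

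Hox genes, which mark position along the body axis, were higher in 20 of 24 with a value and lower in none, with a median of 2.01. Only 12 of the 24 were measured on both arrays. The other values are bounds, which could only be called towards the array above background, and both the count and the median include them. A further 14 were not well above background on either array. Hoxb9 was at least 80.4-fold higher (mm9 chr11:96137065-96137124), while Hoxc4 lay at -0.04. Histone genes were lower in 28 of 43, with a median of -1.59. The glandular kallikreins Klk1 and Klk1b were lower in 12 of 12, with a median of -5.21, but these genes are near-identical and their probes can share signal. For Klk1b11 the level was 4.08 in imDCs, 2.77 in maDCs, -4.81 in sDCs and -4.58 in antibody-treated sDCs. Fgf22, a growth factor gene, had the largest bound downwards, at least 1788-fold lower, with a level of 4.77 in imDCs and no signal well above background on the other 3 arrays. These families were chosen after their values were seen.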
